A study of Homo sapiens with 6 samples.

Results

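The genes described here are 52 genes of the interferon response, of nucleic acid sensing and of antigen presentation, followed across 3 kinds of vector-carrying human embryonic stem cell clones. They were chosen as a fixed list of symbols, and each gene was read from its brightest named array row. Of the 52 genes, 35 had a named row, out of 14884 named genes tested in all. The measured members were 20 of 27 effectors made in the interferon response, 7 of 7 nucleic acid sensors and adaptors, 4 of 5 transcription factors, 2 of 4 interferon receptor chains and 2 of 9 antigen presentation genes. IFI6, IFI27, MX1, OAS1, OAS2, OAS3, ADAR, STAT2, IFNAR1, IFNAR2, HLA-B, HLA-C, HLA-E, HLA-F, TAP1, TAP2 and NLRC5 were not analysed here.

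All 6 samples were clones of the line H9, an embryonic stem cell line in wide use as a model of pluripotent cells. Total RNA of each was read on 1 array. The gamma_ON clones carried a vector with H2A.X in which S139E replaces a serine by glutamate, which resembles the phosphorylated residue. In the gamma_OFF vector H2A.X held the changes S139A and T136A, which leave no residue to phosphorylate at those positions. The CTRL clones carried the same vector with eGFP and no H2A.X. In all 3 groups the insert was driven by the EF1α promoter of a lentiviral vector, cells were sorted for eGFP and a surface antigen of pluripotent cells, and colonies grown from single cells were expanded on mouse embryonic fibroblast feeders with 8 ng/ml bFGF. Each group had 2 arrays. Whether the 2 arrays of a group stand for separate clones or separate cultures is not in the labels, so the p-values reflect only how far these samples spread, possibly for technical reasons. No group carried a vector with unsubstituted H2A.X, so a difference from CTRL cannot be told apart from an effect of added H2A.X. Every clone had met a lentivirus, and untransduced H9 cells were not analysed here.

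Interferons are secreted proteins that bind receptor pairs at the cell surface and signal through JAK kinases to STAT factors. With IRF9, these factors bind the interferon-stimulated response element (ISRE) in the promoters of effector genes, and another element of such promoters is the gamma-activated site (GAS). Cytosolic sensors of foreign or displaced nucleic acid feed the same genes through IRF3 and IRF7. Pluripotent stem cells are known for a weak interferon response and low surface display of class I molecules, together with steady expression of a subset of effectors such as the IFITM genes.

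Levels are log2 values, and a level is compared only with the same gene on other arrays. The median level over named genes lay between 7.09 and 7.14 on the 6 arrays. The spread over named genes was narrowest on gamma_OFF replicate 2, with an SD of 1.64, against 1.70 on gamma_OFF replicate 1 and 1.76 to 1.81 on the gamma_ON and CTRL arrays. Without that array the log2 fold change for gamma_OFF minus CTRL changed sign or moved by over 1.5 times for 19 of the 35 measured members, 3 of which changed sign; values without it are given beside the called members and several of the others. Of 11 measured pluripotency markers, SOX2 read 11.39 to 11.73 and LIN28A 11.90 to 12.23 over the 6 arrays. POU5F1 read 7.10 to 8.05 and NANOG 6.26 to 7.29. The cell type is taken from the labels. Leukocyte markers, which would accompany contaminating immune cells, had 5 of 13 genes measured. Against CTRL 0 were called, beside 1.55% of all named genes in gamma_ON and 8.85% in gamma_OFF. Nearest to a call in gamma_OFF were TYROBP (log2 fold change 0.51, limma adjusted p = 0.0600) and CSF1R (0.48, limma adjusted p = 0.0640). The summed linear level of the 5 markers was 505.1 and 568.1 in gamma_ON, 549 and 637.8 in gamma_OFF, and 506.3 and 464.7 in CTRL. PTPRC was not analysed here.

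Against CTRL, the 35 genes had median changes near 0 in both H2A.X groups, and 3 effectors made up all calls. BST2 fell in gamma_ON, TRIM22 and BST2 fell in gamma_OFF, and MX2 rose in gamma_OFF. In gamma_ON against CTRL, 1 of 35 members passed limma's test at an adjusted p under 0.05, 0 higher and 1 lower, beside 1.55% of all named genes (0.739% higher and 0.806% lower). In gamma_OFF against CTRL, 3 of 35 passed, 1 higher and 2 lower, beside 8.85% of all named genes (2.77% higher and 6.08% lower). Both counts lie near the background share, so they are no result about the list as a whole. Without gamma_OFF replicate 2 the gamma_OFF count was 1 of 35, TRIM22, beside 389 of all named genes. The median log2 fold change over the 35 members was -0.02 in gamma_ON and 0.00 in gamma_OFF, against 0.02 and 0.01 over all named genes. A moderated F test over the 3 groups called 3 of 35 members, BST2, TRIM22 and MX2, beside 8.32% of all named genes.

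The intervals show, gene by gene and for these arrays only, how large an undetected change could be. They are not adjusted for the number of genes. For gamma_ON minus CTRL, 34 of the 35 moderated 95% intervals lay wholly within a 2-fold change either way, and for gamma_OFF minus CTRL 33 did. Over all 14884 named genes, 14521 and 14093 did. The median interval reached 0.30 log2 units to each side of its estimate, and the widest reached 0.50. With called members included, 6 members in gamma_ON against CTRL and 12 in gamma_OFF against CTRL had an unadjusted limma p under 0.05. Over all 14884 named genes 2203 and 4519 did, so these counts are no result about the list. The gamma_ON and CTRL arrays did not overlap for 20 of 35 members, beside 52.4% of all named genes, and the gamma_OFF and CTRL arrays for 23 of 35, beside 61.3%.

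**Figure D1:**
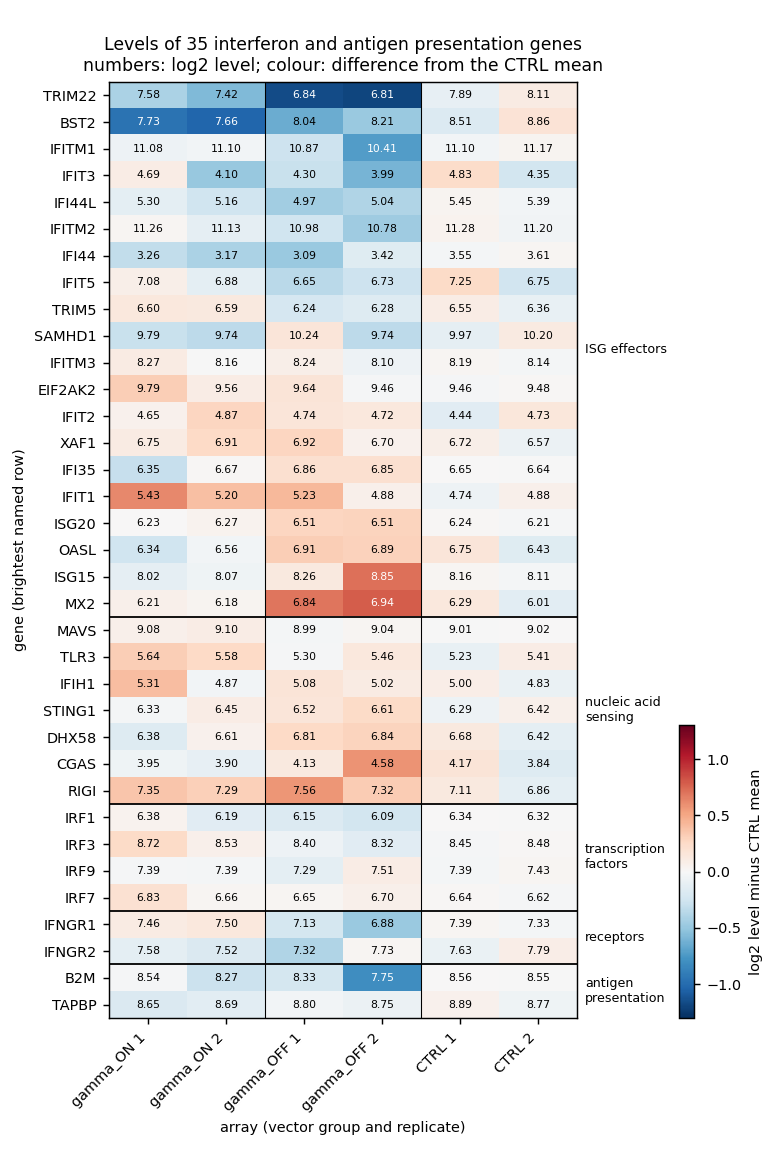
Log2 level of the 35 measured genes (rows, grouped by role) on the 6 arrays (columns, gamma_ON, gamma_OFF, CTRL), with the level printed in each cell and the colour giving the difference from the CTRL mean. BST2 in gamma_ON (7.73 and 7.66), TRIM22 in gamma_OFF (6.84 and 6.81) and MX2 in gamma_OFF (6.84 and 6.94) are deep in colour on both arrays of the group, while B2M (7.75), IFITM1 (10.41) and ISG15 (8.85) are deep on gamma_OFF replicate 2 but paler on replicate 1.

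**Figure D2:**
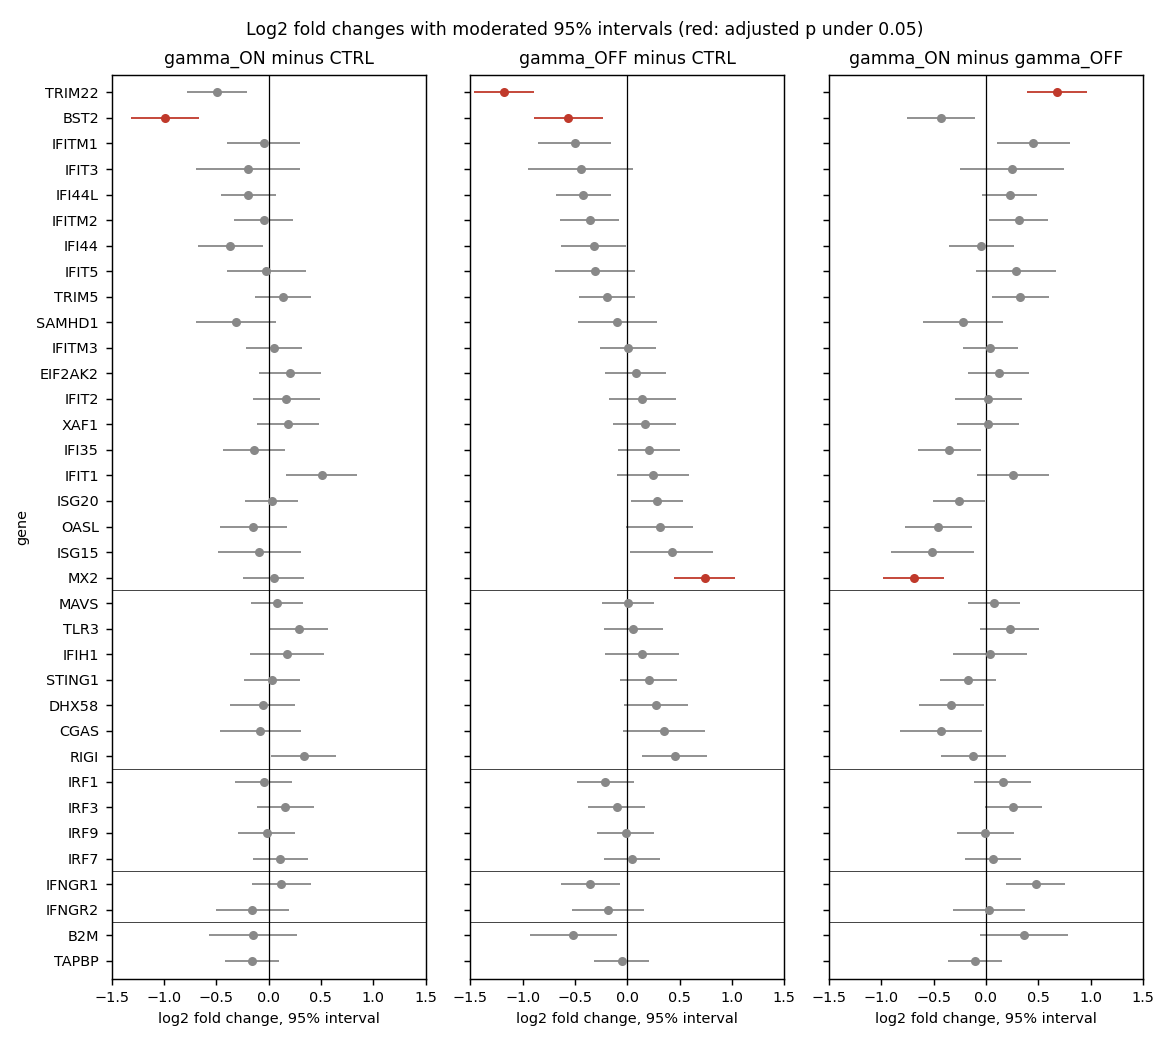
Log2 fold changes (points) with moderated 95% intervals (bars) for the 35 genes in gamma_ON minus CTRL, gamma_OFF minus CTRL and gamma_ON minus gamma_OFF, with genes at an adjusted p under 0.05 in red. Called genes number 1, 3 and 2 in the 3 panels, and all of them are effectors.

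BST2, also called tetherin, is a membrane protein on chromosome 19 that holds budding enveloped viruses at the cell surface. Its level was 7.73 and 7.66 on the gamma_ON arrays and 8.04 and 8.21 on the gamma_OFF arrays, against 8.51 and 8.86 on the CTRL arrays. All 4 arrays with H2A.X lay below both CTRL arrays, and both gamma_ON arrays lay below both gamma_OFF arrays. The level was 1.99-fold lower in gamma_ON than in CTRL, a log2 fold change of -0.99 with a standard error of 0.145 and a 95% interval of -1.32 to -0.66 (limma, adjusted p = 0.0136). It was 1.48-fold lower in gamma_OFF than in CTRL (log2 fold change -0.56, SE 0.145, interval -0.89 to -0.24, limma adjusted p = 0.0464). The gamma_ON call was lost without CTRL replicate 2 (adjusted p = 0.131), gamma_ON replicate 1 (0.119) or gamma_ON replicate 2 (0.123), with log2 fold changes of -0.81 to -1.03. The gamma_OFF call was the more fragile: it held in 4 of 15 alternatives and in 0 of the 6 that leave out an array (adjusted p 0.072 to 0.283, 0.0855 without gamma_OFF replicate 2).

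The BST2 promoter is shown because BST2 was called in both comparisons with CTRL and its promoter carries both kinds of interferon element as letters. The 250 bases before its annotated start lie on the minus strand at chr19:17405631-17405880 (GRCh38.p14, RefSeq), and capitals mark matches to the ISRE core (GAAA, any 2 bases, GAAA) and to the GAS letters (TTC, any 3 bases, GAA), searched on both strands. The ISRE core matched at 130 and 124 bases before the start, overlapping each other, and GAS matched at 136 bases, overlapping the ISRE, and at 58 bases.
BST2: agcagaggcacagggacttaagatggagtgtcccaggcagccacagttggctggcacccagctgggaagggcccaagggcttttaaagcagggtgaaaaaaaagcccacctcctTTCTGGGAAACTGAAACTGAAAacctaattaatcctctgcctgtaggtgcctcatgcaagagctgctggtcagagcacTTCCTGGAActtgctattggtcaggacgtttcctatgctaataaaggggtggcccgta

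TRIM22 is an interferon-induced RING-type ubiquitin ligase on chromosome 11 that restricts several viruses. It read 7.58 and 7.42 in gamma_ON and 6.84 and 6.81 in gamma_OFF, against 7.89 and 8.11 in CTRL. The 3 groups did not overlap, with gamma_OFF lowest and CTRL highest. TRIM22 fell in gamma_OFF to a level 2.26-fold under CTRL (log2 fold change -1.18, SE 0.127, interval -1.46 to -0.89, limma adjusted p = 0.00372). That call held in 15 of 15 alternatives, with adjusted p between 0.000914 and 0.0288, and was 0.0223 at a log2 fold change of -1.16 without gamma_OFF replicate 2. In gamma_ON the log2 fold change from CTRL was -0.50 (SE 0.127, adjusted p = 0.102), which did not pass.

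MX2 is a dynamin-like GTPase on chromosome 21 that blocks nuclear entry of some viruses. It read 6.21 and 6.18 in gamma_ON and 6.84 and 6.94 in gamma_OFF, against 6.29 and 6.01 in CTRL. Both gamma_OFF arrays stood above the other 4 arrays, while gamma_ON lay between the CTRL values. MX2 rose 1.67-fold in gamma_OFF over CTRL (log2 fold change 0.74, SE 0.130, interval 0.45 to 1.03, limma adjusted p = 0.0150). Without gamma_OFF replicate 2 the log2 fold change was 0.69 (adjusted p = 0.0572), and without CTRL replicate 2 it was 0.60 (adjusted p = 0.127). In gamma_ON the log2 fold change from CTRL was 0.05 (adjusted p = 0.909).

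**Figure D3:**
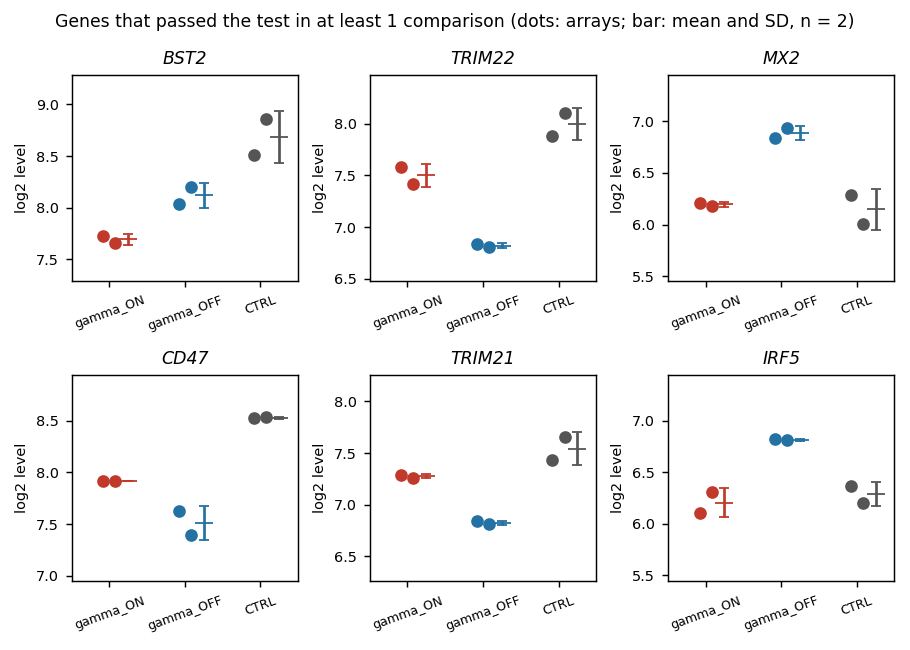
Log2 level of BST2, TRIM22, MX2 and of CD47, TRIM21 and IRF5 from the wider pathway on each array (dots), with mean and SD (bars, n = 2) for gamma_ON, gamma_OFF and CTRL; each vertical axis spans the same range of log2 units. TRIM22, CD47 and TRIM21 have their lowest dots in gamma_OFF, BST2 has its lowest in gamma_ON, and MX2 and IRF5 have their highest in gamma_OFF.

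The other 17 effectors gave no call against CTRL. ISG15, a ubiquitin-like protein joined to other proteins in the interferon response, read 8.02 and 8.07 in gamma_ON and 8.26 and 8.85 in gamma_OFF, against 8.16 and 8.11 in CTRL. The gamma_OFF arrays were highest, and replicate 2 stood well above replicate 1. The log2 fold change for gamma_OFF minus CTRL was 0.42 (SE 0.177, adjusted p = 0.146), and 0.13 without that array.

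Of the IFIT genes, IFIT1 and IFIT5 encode proteins that bind foreign RNA ends. IFIT1 read 5.43 and 5.20 in gamma_ON and 5.23 and 4.88 in gamma_OFF, against 4.74 and 4.88 in CTRL. It had the highest log2 fold change of the members in gamma_ON minus CTRL, 0.51 (SE 0.152, interval 0.16 to 0.85, adjusted p = 0.156). IFIT3 read 4.69 and 4.10 in gamma_ON and 4.30 and 3.99 in gamma_OFF, against 4.83 and 4.35 in CTRL, so that the gamma_ON and CTRL arrays overlapped. The log2 fold change for gamma_OFF minus CTRL without gamma_OFF replicate 2 was 0.42 for IFIT1 (adjusted p = 0.146), against 0.24 with it, and -0.29 for IFIT3 (adjusted p = 0.558). IFIT2 read 4.65 and 4.87 in gamma_ON and 4.74 and 4.72 in gamma_OFF, against 4.44 and 4.73 in CTRL. The IFIT genes differed in sign from each other and none passed: the log2 fold changes were -0.20 in gamma_ON and -0.45 in gamma_OFF for IFIT3, and 0.17 and 0.15 for IFIT2. IFIT5 had log2 fold changes of -0.02 in gamma_ON and -0.31 in gamma_OFF.

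The IFITM genes encode membrane proteins that hinder virus entry, and their near-identical sequences make their separate values uncertain. IFITM1 read 11.08 and 11.10 in gamma_ON and 10.87 and 10.41 in gamma_OFF, against 11.10 and 11.17 in CTRL. IFITM2 read 11.26 and 11.13 in gamma_ON and 10.98 and 10.78 in gamma_OFF, against 11.28 and 11.20 in CTRL. Both had their lowest arrays in gamma_OFF, with log2 fold changes from CTRL of -0.50 (adjusted p = 0.0721) and -0.36 (adjusted p = 0.0966). They were, without gamma_OFF replicate 2, -0.27 (adjusted p = 0.218) and -0.26 (adjusted p = 0.265). IFITM3 read 8.27 and 8.16 in gamma_ON and 8.24 and 8.10 in gamma_OFF, against 8.19 and 8.14 in CTRL, with overlapping groups.

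IFI44 and IFI44L are a pair of related interferon-induced genes on chromosome 1. IFI44L read 5.30 and 5.16 in gamma_ON and 4.97 and 5.04 in gamma_OFF, against 5.45 and 5.39 in CTRL. IFI44 read 3.26 and 3.17 in gamma_ON and 3.09 and 3.42 in gamma_OFF, against 3.55 and 3.61 in CTRL. In both genes all 4 H2A.X arrays lay below both CTRL arrays, and neither passed the test. IFI44 read far under the median of named genes on every array, and how near that lies to background was not tested. The log2 fold changes were -0.19 in gamma_ON and -0.42 in gamma_OFF for IFI44L (adjusted p = 0.489 and 0.0560), and -0.37 and -0.32 for IFI44 (adjusted p = 0.251 and 0.152). For IFI44 in gamma_OFF it was -0.49 without replicate 2 (adjusted p = 0.0810).

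SAMHD1, which breaks down nucleotides that reverse transcription needs, read 9.79 and 9.74 in gamma_ON and 10.24 and 9.74 in gamma_OFF, against 9.97 and 10.20 in CTRL. EIF2AK2, the RNA-activated kinase PKR that halts translation, read 9.79 and 9.56 in gamma_ON and 9.64 and 9.46 in gamma_OFF, against 9.46 and 9.48 in CTRL. ISG20, an exonuclease, read 6.23 and 6.27 in gamma_ON and 6.51 and 6.51 in gamma_OFF, against 6.24 and 6.21 in CTRL. Leaving out gamma_OFF replicate 2, the log2 fold change for gamma_OFF minus CTRL was 0.15 for SAMHD1, against -0.09 with it, and 0.17 for EIF2AK2, against 0.08 with it. Of these, ISG20 had gamma_OFF arrays above all others, with a log2 fold change from CTRL of 0.28 (adjusted p = 0.122). OASL, a relative of the oligoadenylate synthetases, read 6.34 and 6.56 in gamma_ON and 6.91 and 6.89 in gamma_OFF, against 6.75 and 6.43 in CTRL. IFI35, TRIM5 and XAF1 had log2 fold changes between -0.14 and 0.19 in gamma_ON and between -0.19 and 0.21 in gamma_OFF.

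Among the 7 sensors and adaptors, 0 were called in either comparison with CTRL. RIGI, the cytosolic sensor of RNA ends also named DDX58, read 7.35 and 7.29 in gamma_ON and 7.56 and 7.32 in gamma_OFF, against 7.11 and 6.86 in CTRL. All 4 H2A.X arrays lay above both CTRL arrays, with log2 fold changes of 0.33 in gamma_ON (adjusted p = 0.300) and 0.45 in gamma_OFF (adjusted p = 0.0691). CGAS, the enzyme that turns cytosolic DNA into a second messenger, read 3.95 and 3.90 in gamma_ON and 4.13 and 4.58 in gamma_OFF, against 4.17 and 3.84 in CTRL. STING1, the receptor of that messenger, read 6.33 and 6.45 in gamma_ON and 6.52 and 6.61 in gamma_OFF, against 6.29 and 6.42 in CTRL. For CGAS the gamma_OFF and CTRL arrays overlapped, and for STING1 they did not, with log2 fold changes of 0.35 and 0.20 and adjusted p of 0.203 and 0.274. The CGAS value without gamma_OFF replicate 2 was 0.12 (adjusted p = 0.680).

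TLR3, an endosomal receptor for double-stranded RNA, read 5.64 and 5.58 in gamma_ON and 5.30 and 5.46 in gamma_OFF, against 5.23 and 5.41 in CTRL. IFIH1, the sensor of long RNA also known as MDA5, read 5.31 and 4.87 in gamma_ON and 5.08 and 5.02 in gamma_OFF, against 4.999 and 4.828 in CTRL. MAVS, the adaptor through which RIGI and IFIH1 signal, read 9.08 and 9.10 in gamma_ON and 8.99 and 9.04 in gamma_OFF, against 9.01 and 9.02 in CTRL. MAVS varied least of these, with log2 fold changes of 0.08 and 0.00. DHX58, a relative of RIGI without its signalling part, had log2 fold changes of -0.06 in gamma_ON and 0.28 in gamma_OFF. The median log2 fold change of the 7 genes was 0.08 in gamma_ON and 0.20 in gamma_OFF, against 0.02 and 0.01 over all named genes. In gamma_OFF all 7 were positive, with a range of 0.00 to 0.45, beside 51.9% of all named genes. Without gamma_OFF replicate 2, 5 of 7 were positive, with MAVS and TLR3 both at -0.02, and the median was 0.16. Of the 7 genes 3 lay among the 4962 dimmest genes on the array, 3 in the middle and 1 among the brightest. With all 6 arrays, the median in gamma_OFF was 0.20 over the 7 genes. It was 0.16 over the 4962 dimmest genes, 0.02 over the 4961 in the middle and -0.13 over the 4961 brightest. The part of level in the values of the 7 genes was not tested. No member of the group is counted as changed.

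The 4 measured transcription factors also gave 0 calls. IRF3, which is activated downstream of the sensors, read 8.72 and 8.53 in gamma_ON and 8.40 and 8.32 in gamma_OFF, against 8.45 and 8.48 in CTRL. IRF1, an early target of interferon gamma, read 6.38 and 6.19 in gamma_ON and 6.15 and 6.09 in gamma_OFF, against 6.34 and 6.32 in CTRL. Their log2 fold changes in gamma_OFF minus CTRL were -0.10 and -0.21 (adjusted p = 0.583 and 0.264). IRF9, the DNA-binding part of the ISRE-binding complex, and IRF7, the amplifier of type I interferon expression, stayed within 0.11 log2 units of CTRL in gamma_ON and within 0.04 in gamma_OFF, where IRF9 was at -0.12 without replicate 2.

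Of the receptors, IFNGR1, the ligand-binding chain for interferon gamma, read 7.46 and 7.50 in gamma_ON and 7.13 and 6.88 in gamma_OFF, against 7.39 and 7.33 in CTRL. IFNGR2, the signalling chain, read 7.58 and 7.52 in gamma_ON and 7.32 and 7.73 in gamma_OFF, against 7.63 and 7.79 in CTRL. Neither was called. IFNGR1 was lowest on the gamma_OFF arrays, with a log2 fold change from CTRL of -0.35 (adjusted p = 0.1003). Without gamma_OFF replicate 2 it was -0.23 for IFNGR1 (adjusted p = 0.285) and -0.39 for IFNGR2 (adjusted p = 0.136), against -0.18 for IFNGR2 with that array.

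Antigen presentation was read through B2M, the invariant chain of class I molecules, and TAPBP, the tapasin that loads peptide onto them. B2M read 8.54 and 8.27 in gamma_ON and 8.33 and 7.75 in gamma_OFF, against 8.56 and 8.55 in CTRL. Replicate 2 was the lower of the gamma_OFF arrays, and the log2 fold change from CTRL was -0.52 (SE 0.185, adjusted p = 0.103). Without that array it was -0.23 (adjusted p = 0.379). A dimmer second row of B2M gave 0.02 for the same difference, so the rows disagree. TAPBP read 8.65 and 8.69 in gamma_ON and 8.80 and 8.75 in gamma_OFF, against 8.89 and 8.77 in CTRL. Its 5 rows ranged from -0.16 to -0.14 in gamma_ON and from -0.07 to -0.04 in gamma_OFF, and it was not called.

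Comparing the substituted forms directly, 2 of 35 members were called for gamma_ON against gamma_OFF, 1 higher and 1 lower, beside 5.99% of all named genes (3.98% higher and 2.02% lower). TRIM22 was 1.60-fold higher in gamma_ON than in gamma_OFF (log2 fold change 0.68, SE 0.127, limma adjusted p = 0.0280). MX2 was 1.61-fold lower in gamma_ON than in gamma_OFF (log2 fold change -0.69, SE 0.130, limma adjusted p = 0.0280). BST2, lower than CTRL in both groups, differed by -0.43 log2 units between gamma_ON and gamma_OFF (adjusted p = 0.0903), which did not pass. This comparison shares its arrays with both comparisons against CTRL and is not independent of them.

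The gamma_ON and gamma_OFF arrays did not overlap for 21 of 35 members, beside 63.3% of all named genes. The next largest values were 0.48 for IFNGR1 (adjusted p = 0.0562) and 0.45 for IFITM1 (adjusted p = 0.0918) on the positive side, and -0.51 for ISG15 (adjusted p = 0.0941) and -0.45 for OASL (adjusted p = 0.0783) on the negative side. IFITM1 was at 0.22 (adjusted p = 0.297) and ISG15 at -0.22 (adjusted p = 0.307) without gamma_OFF replicate 2. Without gamma_OFF replicate 2 neither call held, at log2 fold changes of 0.66 for TRIM22 and -0.64 for MX2. Leaving out either gamma_ON array also ended both calls. Each of these settings also called fewer of all named genes, so the lost calls are not particular to the members.

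The gamma_OFF arrays differed from CTRL in a way that depended on level across the whole array. The median log2 fold change for gamma_OFF minus CTRL was 0.16 over the 4962 dimmest genes, 0.02 over the 4961 in the middle and -0.13 over the 4961 brightest. For gamma_ON minus CTRL the same medians were 0.01, 0.00 and 0.06. Of the 35 members, 10 lay among the dimmest, 14 in the middle and 11 among the brightest genes. With all arrays scaled to the same median and SD, TRIM22 in gamma_OFF was at -1.15 (adjusted p = 0.00885) and MX2 at 0.74 (0.0207), while BST2 was at -0.47 (0.0818) and no longer passed. The part of this level dependence in the smaller values of the other members was not tested.

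**Figure D4:**
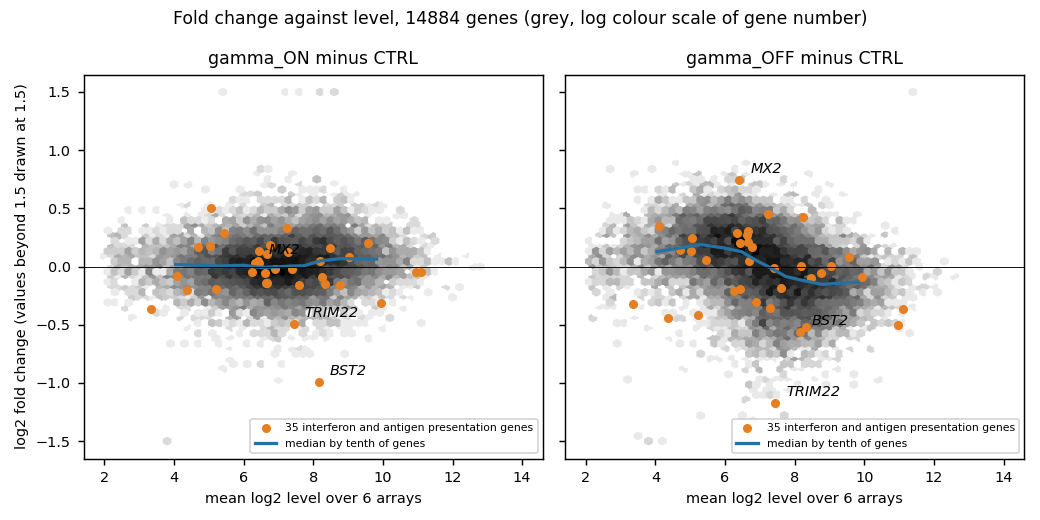
Log2 fold change against mean log2 level for 14884 named genes (grey density) with the 35 interferon and antigen presentation genes (orange) and the median by level (blue line), for gamma_ON minus CTRL and gamma_OFF minus CTRL. The blue line runs near 0 in gamma_ON and from above 0 among dim genes to below 0 among bright genes in gamma_OFF, where TRIM22, BST2 and MX2 lie away from it.

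Cell type markers moved between the groups as well. Their counts stand beside 0.739% of all named genes higher and 0.806% lower in gamma_ON, and 2.77% higher and 6.08% lower in gamma_OFF, against CTRL. Of 7 measured fibroblast markers, 0 rose and 1 fell in gamma_ON and 0 rose and 3 fell in gamma_OFF against CTRL. The marker that fell in gamma_ON was TAGLN (log2 fold change -0.62, limma adjusted p = 0.0304). Their summed linear level was 2632 and 2579 in gamma_ON and 1780 and 1651 in gamma_OFF, against 2695 and 2330 in CTRL. Of 9 measured mesenchymal markers, 0 were called in gamma_ON and 4 fell in gamma_OFF, with sums of 7504 and 7256 in gamma_ON and 4451 and 4256 in gamma_OFF, against 9327 and 7621 in CTRL. Of 13 measured endoderm and hepatocyte markers, 7 rose and 0 fell in gamma_ON and 1 rose and 4 fell in gamma_OFF, with sums of 12390 and 13350 in gamma_ON and 2746 and 2810 in gamma_OFF, against 4674 and 3581 in CTRL. The part of these markers in the interferon genes was not tested, and in such bulk samples fewer cells of a type and less RNA per cell cannot be told apart.

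The wider pathway was read from a list of 166 further genes, of which 78 were measured, including 0 of 22 interferon ligands. In gamma_ON against CTRL 1 of 78 fell and 0 rose, beside 1.55% of all named genes called. In gamma_OFF against CTRL 5 fell and 2 rose, beside 8.85%, and between gamma_ON and gamma_OFF 1 was higher and 1 lower, beside 5.99%. The counts in gamma_ON and gamma_OFF against CTRL are near these shares, so they are no result about the list, and the genes below are described one by one. The median log2 fold changes were 0.01, 0.03 and 0.02, against 0.02, 0.01 and 0.02 over all named genes.

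CD47, the surface signal that restrains uptake by macrophages, read 7.92 and 7.92 in gamma_ON and 7.63 and 7.40 in gamma_OFF, against 8.52 and 8.54 in CTRL. The groups did not overlap and gamma_OFF was lowest. CD47 fell 2.02-fold in gamma_OFF (log2 fold change -1.02, SE 0.123, limma adjusted p = 0.00505), a call kept in 15 of 15 alternatives, and 1.53-fold in gamma_ON (log2 fold change -0.61, limma adjusted p = 0.0488), a call kept in 7 of 15. TRIM21, a ubiquitin ligase that binds antibody inside cells, read 7.29 and 7.26 in gamma_ON and 6.84 and 6.81 in gamma_OFF, against 7.43 and 7.66 in CTRL. It fell in gamma_OFF (log2 fold change -0.72, limma adjusted p = 0.0133), and lost the call without CTRL replicate 2 (adjusted p = 0.122). CD47, TRIM21 and TRIM22 shared the order of groups, lowest in gamma_OFF and highest in CTRL. The group means of JAK1, TBK1 and SOCS1, described next, had this order too, while BST2 was lowest in gamma_ON. All of these genes were named as called lower in gamma_OFF than in CTRL, so only the place of gamma_ON was free. For TBK1 the gamma_ON mean was 8.140, against 8.149 in CTRL, and the gamma_ON arrays lay on either side of both CTRL arrays.

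Signalling genes were among the smaller changes in gamma_OFF. JAK1, a kinase bound to interferon receptors, read 8.53 and 8.44 in gamma_ON and 8.12 and 8.14 in gamma_OFF, against 8.64 and 8.57 in CTRL (gamma_OFF minus CTRL -0.48, limma adjusted p = 0.0382). TBK1, the kinase that activates IRF3, read 8.29 and 7.99 in gamma_ON and 7.73 and 7.34 in gamma_OFF, against 8.11 and 8.18 in CTRL (gamma_OFF minus CTRL -0.61, limma adjusted p = 0.0489). SOCS1, a feedback inhibitor of JAK kinases, read 7.42 and 7.38 in gamma_ON and 6.97 and 7.16 in gamma_OFF, against 7.55 and 7.50 in CTRL (gamma_OFF minus CTRL -0.46, limma adjusted p = 0.0483). All 3 were lower on both gamma_OFF arrays than on any other array.

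IRF5, a transcription factor activated downstream of Toll-like receptors, read 6.10 and 6.30 in gamma_ON and 6.82 and 6.81 in gamma_OFF, against 6.37 and 6.20 in CTRL. It rose in gamma_OFF over CTRL (log2 fold change 0.53, limma adjusted p = 0.0384) and was lower in gamma_ON than in gamma_OFF (-0.61, limma adjusted p = 0.0371). RTP4, an interferon-induced chaperone of receptor traffic, read 5.79 and 5.75 in gamma_ON and 6.17 and 6.27 in gamma_OFF, against 5.64 and 5.68 in CTRL. It rose in gamma_OFF (log2 fold change 0.56, limma adjusted p = 0.0238). RFXAP, a subunit of the factor that drives class II genes, read 7.22 and 7.29 in gamma_ON and 6.78 and 6.64 in gamma_OFF, against 6.87 and 6.88 in CTRL. It was higher in gamma_ON than in gamma_OFF (log2 fold change 0.54, limma adjusted p = 0.0391). The calls on these 6 genes held in 3 to 8 of 14 or 15 alternatives, and none held without gamma_OFF replicate 2.

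Whether members with an ISRE behaved alike was read from RefSeq promoters of 300 bases, 250 before and 50 after the start. A promoter was given for 25 of the 35 members; CGAS, DHX58, IFIT2, IFITM2, IRF3, IRF7, MX2, OASL, STING1 and TRIM22 are named only. On either strand, the ISRE core lay in 16 of 25 members (64.0%), against 4.38% of 27305 genes with a promoter. The longer form, which is the core followed by CT, lay in 10 members (40.0%), against 0.322% of genes, and the GAS letters in 6 members (24.0%), against 9.38% of genes. The members were listed as interferon genes, so their ISRE share describes the list and not these arrays. Windows of 30 bases are printed only for members that hold the longer form, so they show its sequence and not how often it occurs. Of the members shown, only BST2 passed the test. For IFIT3, IFIT5 and IFITM3, which have more than 1, a single window is shown. Capitals mark the longer ISRE, which begins with AG and ends with TTTC where it lies on the other strand.
ISG15: cgggaaaggGAAACCGAAACTgaagccaaa
IFI44: ggcacactgAGTTTCAGTTTCctttctctg
EIF2AK2: gtccaagggGAAAACGAAACTgagaaccag
IFIT3: ggttccatcAGTTTCACTTTCctttcccct
IFIT1: gctagctttAGTTTCACTTTCccctttcgg
IFIT5: cttctattaAGTTTCGGTTTCtgaagctta
IFITM1: aaacagcagGAAATAGAAACTtaagagaaa
IFITM3: aactgttgaGAAACCGAAACTactggggaa
B2M: agactctaaGAAAAGGAAACTgaaaacggg
BST2: cctttctggGAAACTGAAACTgaaaaccta

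On GRCh38.p14 these windows lie on the plus strand at chr1:1013381-1013410 for ISG15, chr1:78649760-78649789 for IFI44, chr10:89332467-89332496 for IFIT3, chr10:89392496-89392525 for IFIT1, chr10:89414512-89414541 for IFIT5, chr11:313991-314020 for IFITM1 and chr15:44711364-44711393 for B2M. On the minus strand they lie at chr2:37156966-37156995 for EIF2AK2, chr11:320875-320904 for IFITM3 and chr19:17405740-17405769 for BST2. The capitals begin from 6 bases before the annotated start in EIF2AK2 to 144 bases before it in B2M.

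Of the 16 members with an ISRE core, 1 was called in gamma_ON against CTRL, 1 in gamma_OFF against CTRL and 0 in gamma_ON against gamma_OFF, with BST2 as the called gene in each case. Their median log2 fold changes were -0.04, -0.12 and 0.18 in the same order. Over all 418 tested genes with an ISRE core, 1.44% were called in gamma_ON against CTRL, against 1.32% of the 10331 without one. In gamma_OFF against CTRL the shares were 9.57% and 8.38%, and in gamma_ON against gamma_OFF 4.78% and 5.81%. A match of letters is a description of the sequence and says nothing of binding.

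**Figure D5:**
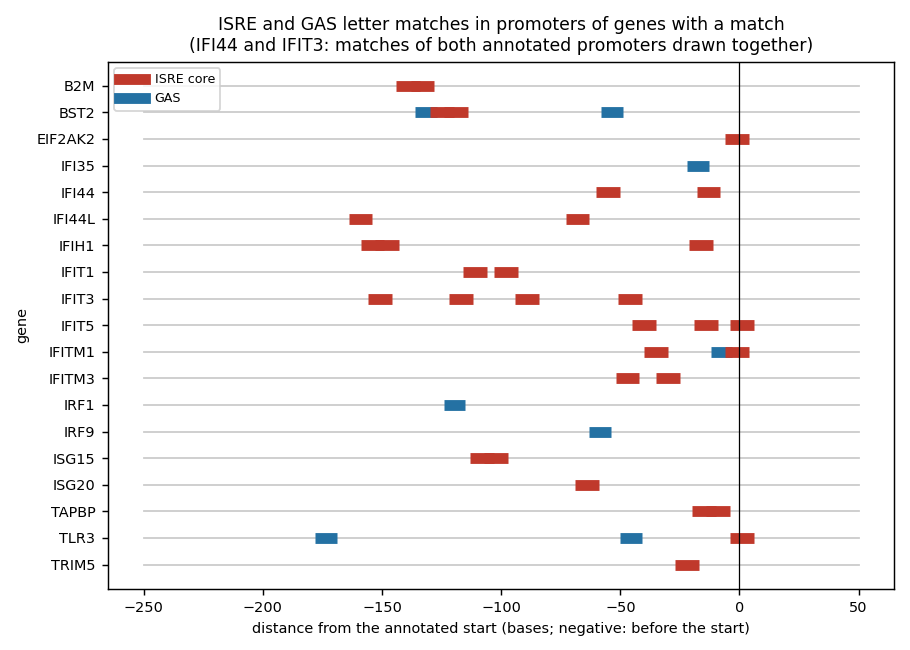
Position of ISRE core (red) and GAS (blue) letter matches relative to the annotated start (horizontal axis, bases) in the promoters of members that hold at least 1 match. The matches begin within 250 bases before the start, from single matches in ISG20 and TRIM5 to several in IFIT3, IFIT5 and BST2. For IFI44 and IFIT3 the matches of both annotated promoters are drawn together.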

How the data were processed

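Per the submitters' processing notes, the deposited values are log2 levels made with RMA and Partek 6.6; the sources used here do not give their order and options, the genome build or the annotation. The table held 53617 rows. A platform annotation named 16098 rows with 1 gene symbol and left 37519 unnamed; all 16098 matched RefSeq GRCh38.p14. Of 779 genes with several rows the brightest was kept, which left 14884 genes. Groups came from the sample descriptions. The values were fitted with limma 3.58.1 (lmFit and eBayes, no trend, not robust) in R 4.3.3 over all 6 arrays, with 3 residual and 6.05 prior degrees of freedom; tests were two-sided, with Benjamini-Hochberg adjustment over all 14884 genes, a call at an adjusted p under 0.05 and 95% moderated intervals. All adjusted p-values are limma's. With 2 arrays on each side the smallest exact p is 0.333, and no exact test was run. The number of arrays limits the precision. The scripts were tested on simulated data.

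The members, the wider lists and the marker lists were chosen with earlier results of these data known. Values on every array were given for called members, for the 3 highest and 3 lowest log2 fold changes of each comparison, for the 10 brightest and 10 dimmest members and for at least 1 gene of each role; STING1 and IFNGR2 were added after their values were seen. All called genes of the wider pathway were named. Alternatives covered a replicate block, the spread model, the arrays fitted, array weights, a filter on dim genes, the row rule, the threshold, 3 scalings, each array left out and a longer ISRE.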

Additional observations from a re-analysis of the deposited data

How the results depend on the processing

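Log2 fold changes of the members were recomputed 1518 times under alternatives. Of these, 1448 kept their side of the threshold and either kept their sign or shifted by less than their standard error. A call was lost in 24 and gained in 21. Another 25, uncalled, changed sign by at least their standard error, and 0 reversed while called. For gamma_ON against CTRL, the count of called members was 3 with array weights (BST2, TRIM22 and IFIT1), 2 with dim genes left out (16 members remained, BST2 and TRIM22 called) and 0 to 1 when an array was left out. For gamma_OFF against CTRL it was 7 at an adjusted p under 0.10 and 1 to 8 when an array was left out. For gamma_ON against gamma_OFF it was 7 at 0.10, 0 with array weights and 0 to 8 when an array was left out. The F test called 6 members at 0.10 and 1 to 9 when an array was left out; over all named genes it called 3369 at 0.10 and 253 to 4000 with an array left out, against 1238 as reported. The highest counts, 8, 8 and 9, came without gamma_OFF replicate 1, when the narrower array alone stood for its group and was assumed to vary like the others; without gamma_OFF replicate 2 the F test called 2 members and 509 of all named genes. BST2 in gamma_OFF also lost its call with 2 groups fitted (adjusted p = 0.081), array weights (0.0806), quantile normalisation (0.103) and median centring (0.0556). With array weights the adjusted p for gamma_ON against gamma_OFF was 0.059 for MX2 and 0.0579 for TRIM22. MX2 fell under the filter on dim genes and has no value there. The longer ISRE lay in 10 promoters, against 16 for the core. Over all named genes, the counts with arrays left out were 34 to 487 for gamma_ON against CTRL (230 as reported), 131 to 3515 for gamma_OFF against CTRL (1317) and 49 to 4061 for gamma_ON against gamma_OFF (892); array weights gave 803, 767 and 229, and fitting only the groups compared gave 487, 567 and 275. Trend and robust fitting gave 381, 1729 and 1596, scaling to the same median and SD 164, 890 and 443, quantile normalisation 169, 933 and 476, and an adjusted p under 0.10 gave 508, 2941 and 3121. With dim genes left out the count for gamma_ON against gamma_OFF was 1495. The causes were not tested.

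Replicate numbers did not pair the samples: deviations of same-numbered arrays correlated at 0.09 for gamma_ON with gamma_OFF, -0.10 for gamma_ON with CTRL and -0.07 for gamma_OFF with CTRL. With the replicate number as a block, the counts of called members were 1, 3 and 2 as reported, BST2 and TRIM22 in gamma_OFF had adjusted p of 0.0445 and 0.00449, and CD47 in gamma_ON (0.0635) and SOCS1 in gamma_OFF lost their calls.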

Other observations

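Genes next to the called members were read after their values were seen, as the 2 nearest measured protein-coding genes on each side in RefSeq order. Beside BST2, PLVAP, an endothelial membrane protein, read 7.10 and 7.15 in gamma_ON and 6.60 and 6.64 in gamma_OFF, against 6.54 and 6.28 in CTRL. It rose in gamma_ON (log2 fold change 0.71, limma adjusted p = 0.0304), opposite in sign to BST2, while GTPBP3, TMEM221 and NXNL1 were not called. Of 4 genes beside TRIM22 (TRIM5, TRIM6-TRIM34, C11orf42 and CNGA4), 0 were called in any comparison, with log2 fold changes of -0.19 to 0.19 in gamma_OFF minus CTRL. Of 4 beside MX2 (DSCAM, BACE2, RIPK4 and PRDM15), 0 were called, with -0.44 to 0.11 in the same comparison.

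Of 12 listed pluripotency markers 11 were measured. POU5F1, the core pluripotency factor, rose in gamma_ON (log2 fold change 0.71, limma adjusted p = 0.0441), and DNMT3B, a DNA methyltransferase, rose in gamma_OFF (0.46, limma adjusted p = 0.0489). In each of these comparisons the other 10 measured markers were not called. Of 6 measured endothelial markers 0 were called in gamma_ON and 1, PECAM1, rose in gamma_OFF. Of 10 measured neuroectoderm markers 1 fell in gamma_ON and 2 fell in gamma_OFF. Of 7 measured trophoblast and amnion markers 1 rose in gamma_ON and 1 fell in gamma_OFF. These counts stand beside 1.55% of all named genes called in gamma_ON and 8.85% in gamma_OFF against CTRL. With so few markers in each list, they are no result about a cell type.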
